A study of Mus musculus with 8 samples.

Results

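The clustered protocadherins are cell-surface adhesion proteins of the cadherin superfamily whose genes stand in 3 neighbouring arrays, called α, β and γ, on mouse chromosome 18. Every row of the deposited gene table whose symbol begins with Pcdha, Pcdhb or Pcdhg was taken as a member, which gave 58 of 22274 genes: 14 of the α cluster, 22 of the β cluster and 22 of the γ cluster. Members with no counts were kept in the tally. The libraries came from RFB cells, a mouse kidney line labelled as fibroblasts, and all 8 were treated with TGF-β, the cytokine that drives fibroblasts to make matrix. Of these, 4 received TGF-β alone and 4 TGF-β with chaetocin, a fungal metabolite used to inhibit SUV39 family methyltransferases of histone H3 lysine 9, with known effects on redox enzymes too. Neither the dose nor the duration of treatment is stated in the labels, and no library without TGF-β was analysed here. A Suv39h1 knockdown is named in the series design but in none of the 8 labels. Separate cultures are not mentioned in the labels, so the p-values reflect differences among these libraries that may be technical.

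In the α and γ clusters each gene starts with its own large variable exon, read from its own promoter and spliced to a few constant exons that all genes of the cluster share. The variable exon encodes the extracellular cadherin repeats, the membrane span and part of the cytoplasmic tail, and the constant exons encode the common end of the tail. Genes of the β cluster have no constant exons. The genes are best known from neurons, where each cell uses a small set of the alternate promoters, and the proteins form recognition complexes that give a cell its own surface identity. Alternate promoters are held silent by DNA methylation and histone H3 lysine 9 methylation, and the promoters that are used are bound by CTCF and cohesin, which join them to distant enhancers. The last genes of the α and γ clusters, named with a c, are the C-type genes, and most of these are read in a more uniform way than the alternate ones.

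On GRCm38 the α cluster lies on chromosome 18 from 36930184 to 37187661, the β cluster from 37264938 to 37524479 and the γ cluster from 37661793 to 37841873, all on the plus strand. Each α member shares 2860 or 2864 exon bases with other members, and each γ member 2116 to 3157 bases, 27.8% to 66.8% of its exons. The assignment of reads from these shared exons is not given in the sources, so single members of the α and γ clusters are less certain than their sums. Pcdhac1 had 0 counts in each of the 8 libraries although 2860 of its exon bases are shared, so such reads were not counted once for every gene that holds them. Strand use is not given either, and exons of 13 members (4 α, 1 β and 8 γ) overlap a gene on the opposite strand. On either strand, exons of 5 α, 1 β and all 22 γ members overlap a gene that is not a member. Each γ member overlaps Gm42416, Gm37013, Gm37388 and Gm38182 on its own strand.

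Total counts were 20135312 to 23664084 per library with TGF-β alone. Chaetocin replicate 1 had 22591935 counts and the remaining chaetocin libraries 14421225 to 15084876. A count of 3 stood for 0.128 to 0.200 CPM, the count scaled to the TMM-adjusted size of the library. The fibroblast label was borne out in part: Fn1 was at 35963 ± 821.6 CPM (SD, n = 4), Vim at 1163 ± 30.2 CPM and Col1a1 at 232.9 ± 10.6 CPM with TGF-β alone, whereas Pdgfra was at 3.52 ± 0.335 CPM, Thy1 at 1.27 ± 0.361 CPM and Lum near 0. Epithelial genes were abundant in the same libraries, with Cdh1 at 650.5 ± 8.10 CPM and the kidney-specific cadherin gene Cdh16 at 164.8 ± 12.5 CPM. Of 14608 genes tested across the table, 80.7% were called changed at an adjusted p under 0.05, 38.8% lower and 42% higher with chaetocin, so a call alone says little about any gene. At least 2-fold changes were rarer: 4.88% of the tested genes were called and at least 2-fold lower, and 19.7% were called and at least 2-fold higher.

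Clustered protocadherin transcripts were lower with chaetocin in all 3 clusters. The 58 members together had 244.97, 232.83, 239.84 and 249.96 CPM in the TGF-β libraries and 125.13, 123.46, 124.93 and 118.87 CPM in the chaetocin libraries. The groups were far apart, and the level with chaetocin was 50.9% of that with TGF-β alone. The γ cluster carried most of this sum, at 201.0 ± 5.34 CPM (SD, n = 4) against 106.7 ± 2.44 CPM with chaetocin. The β cluster was lowest in proportion, with 36.8 ± 1.76 against 13.5 ± 0.830 CPM, 36.7% of its level with TGF-β alone. The α cluster was low throughout, at 4.08 ± 0.494 against 2.85 ± 0.423 CPM, or 69.8%. The groups of 4 did not overlap in any of the 3 sums, which are descriptions without a test. In bulk libraries fewer cells that make a transcript and less transcript per cell cannot be told apart.

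**Figure D1:**
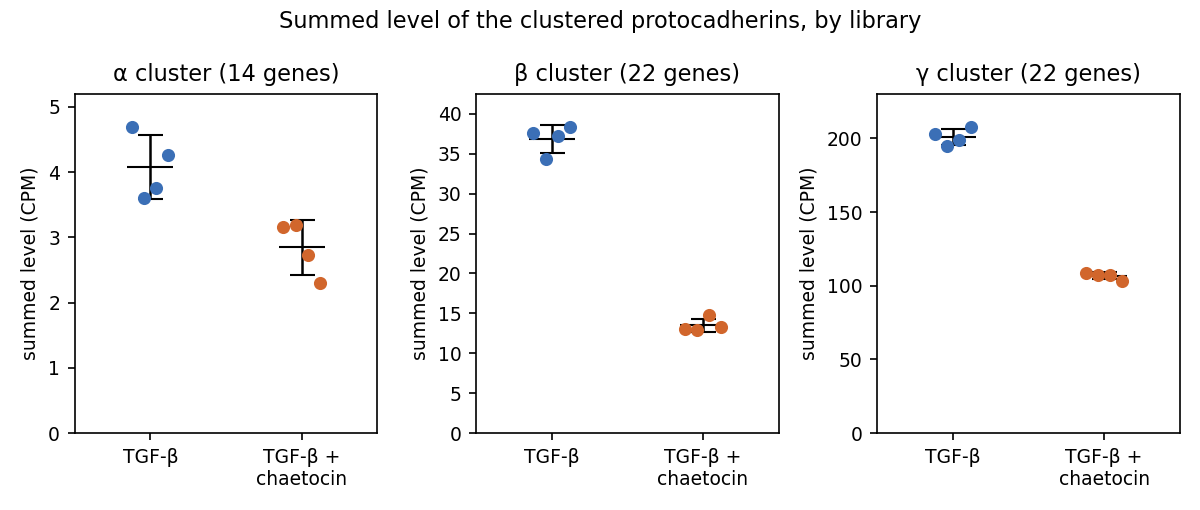
Summed level of each protocadherin cluster in CPM (vertical axes, from 0), with 1 point per library, the mean as a bar and the SD as the error bar, n = 4 per group. In each cluster all 4 chaetocin libraries lie below all 4 TGF-β libraries, and the mean γ cluster sum is 201.0 against 106.7 CPM.

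Of the 58 members, 35 had enough counts to be tested, 3 of the α, 10 of the β and all 22 of the γ cluster. With chaetocin 27 of these 35 fell, 1 rose and 7 did not pass the test (edgeR quasi-likelihood test, Benjamini-Hochberg adjustment over all 14608 genes). The 27 make 77.1% of the tested members, where 38.8% of all tested genes were lower. At least 2-fold falls were called in 23 members, 65.7% of those tested, where 4.88% of all tested genes showed one. The median log2 fold change of the tested members was -1.31, against 0.02 for all tested genes. Total-count scaling moved the latter to 0.14, a shift that applies to each log2 value here, and left the 27 calls in place. All 35 tested members reached the count minimum in the 4 TGF-β libraries, and 8 reached it there but not in every chaetocin library. Those 8 could not have entered on the chaetocin libraries alone, so the shares describe the tested members and not the whole family. Among the other 27, which reached the minimum in both groups, 20 fell, 1 rose and 6 did not pass. Of all 14608 tested genes, 10121 had a mean level within the members' range, and 34.5% of these were called lower and 4.85% at least 2-fold lower. Two-sided exact permutation tests of log2(CPM + 0.5) reached p = 0.0286, the lowest p possible with 4 against 4, for the 27 members that fell and for 0 of the other 8 (35 tests, unadjusted). Among the 35 tested members the same 27 were lower without overlap between groups, where 35.7% of all tested genes were, and 0 were higher without overlap, where 39% of all tested genes were. Of the untested members Pcdhb3, Pcdhb4 and Pcdhb11 were lower without overlap, and Pcdha8 and Pcdhac2 were higher.

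The most abundant member was Pcdhgc3, a C-type γ gene that is also read outside the nervous system. Its level in the authors' deposited FPKM, which divides by gene length, was 15.2 with TGF-β alone and 9.44 with chaetocin, where the next member, Pcdhgb2, stood at 3.15 and 1.73 FPKM. Pcdhgc3 was at 72.9, 71.9, 74.0 and 77.1 CPM in the TGF-β libraries and at 44.1, 43.1, 41.1 and 42.0 CPM with chaetocin. All chaetocin libraries were low and the groups lay far apart. The fitted log2 fold change of Pcdhgc3 was -0.79 ± 0.039 (SE; edgeR, Benjamini-Hochberg adjusted p = 1.5e-16), the smallest fall among the 27 called members and also the most precise. Exons of Pcdhgc3 overlap BC037039 on the opposite strand.

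The alternate γ genes come in an A and a B subfamily, which differ in sequence and are interleaved along the cluster. Of the 12 A-type genes 10 fell, with 2 not passing the test, and their median log2 fold change was -1.37. Of the 7 B-type genes 5 fell, 1 rose and 1 did not pass, with a median of -1.08. Among all tested genes 38.8% were called lower and 42% higher. The largest fall in the cluster was that of the A-type gene Pcdhga7, at 9.23, 9.9997, 8.59 and 10.3 CPM with TGF-β alone and 1.92, 2.94, 1.73 and 2.87 CPM with chaetocin. The highest chaetocin library was far below the lowest TGF-β library, and the log2 fold change was -2.03 ± 0.14 (SE; edgeR adjusted p = 4.8e-13). Its neighbour Pcdhga6 went from 3.54 ± 0.471 to 0.948 ± 0.358 CPM, and Pcdhga2, near the start of the cluster, from 2.74 ± 0.705 to 0.768 ± 0.401 CPM (SD, n = 4 each). These 2 genes had log2 fold changes of -1.83 ± 0.22 and -1.92 ± 0.28 (SE). Pcdhga2 reached the count minimum in every TGF-β library, where it was high, but not in every chaetocin library.

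The more abundant B-type genes fell by about 2-fold. Pcdhgb2 was at 15.1, 16.9, 13.2 and 16.1 CPM with TGF-β alone and at 6.92, 8.88, 7.34 and 7.91 CPM with chaetocin. Pcdhgb4 was at 16.6, 13.5, 14.6 and 14.7 CPM and 6.32, 6.90, 7.34 and 7.33 CPM. In both genes each chaetocin library was below each TGF-β library, with log2 fold changes of -0.99 ± 0.094 for Pcdhgb2 and -1.10 ± 0.090 for Pcdhgb4 (SE; edgeR adjusted p = 2.1e-10 and 1.0e-11). Pcdhgb6 and Pcdhgb5 had log2 fold changes of -1.08 ± 0.096 and -1.31 ± 0.12, and Pcdhgb1 one of -1.64 ± 0.18 (SE). The other called A-type genes, Pcdhga1, Pcdhga3, Pcdhga4, Pcdhga5, Pcdhga8, Pcdhga9 and Pcdhga10, fell by 0.84 (Pcdhga4) to 1.66 (Pcdhga5) on the log2 scale.

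**Figure D2:**
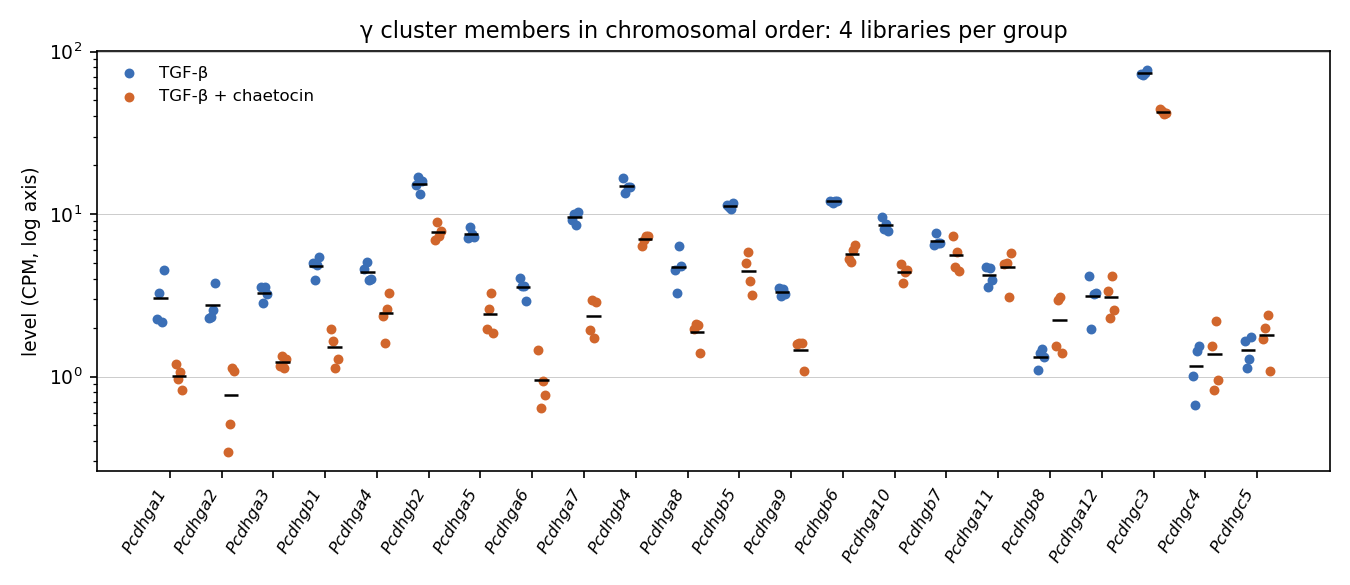
Level of each of the 22 γ cluster genes in CPM (vertical log axis) in chromosomal order, with 1 point per library and a bar at each group mean, n = 4 per group. The groups are apart from Pcdhga1 to Pcdhga10 and at Pcdhgc3, and they overlap at Pcdhgb7, Pcdhga11, Pcdhgb8, Pcdhga12, Pcdhgc4 and Pcdhgc5.

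At the far end of the γ cluster, Pcdhgc3 was the only gene called lower. The first 15 genes, from Pcdhga1 to Pcdhga10, were each called lower, against 1 of the last 7, where 38.8% of all tested genes were. Pcdhga2, among the first 15, could not have entered the test on the chaetocin libraries alone. The difference between both ends was not tested. Pcdhgb7, the 16th gene, was at 6.43, 7.63, 6.67 and 6.64 CPM with TGF-β alone and at 7.31, 4.73, 5.87 and 4.46 CPM with chaetocin, where replicate 1 was as high as the TGF-β libraries. Its log2 fold change was -0.26 ± 0.13 (SE; edgeR adjusted p = 0.0735), and without chaetocin replicate 1 it was -0.45 and called (edgeR adjusted p = 0.00384). Pcdhga11 was at 4.73, 3.56, 4.64 and 3.92 CPM and 4.96, 4.98, 3.07 and 5.74 CPM, and Pcdhga12 at 4.13, 1.96, 3.21 and 3.26 CPM and 3.38, 2.30, 4.14 and 2.55 CPM. The groups overlapped in both genes, with log2 fold changes of 0.16 (1.96 SE interval -0.15 to 0.47) and -0.026 (-0.42 to 0.36; the value is 0.088 under total-count scaling). These intervals leave out a 2-fold change in either direction but not smaller ones.

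Pcdhgb8, which RefSeq lists as a transcribed pseudogene and GENCODE as a polymorphic one, was the member called higher. It was at 1.10, 1.39, 1.48 and 1.32 CPM with TGF-β alone and at 1.54, 2.94, 3.07 and 1.40 CPM with chaetocin. Replicates 2 and 3 with chaetocin were high, replicate 4 lay within the TGF-β range and replicate 1 just above it. The log2 fold change was 0.72 ± 0.25 (SE; edgeR adjusted p = 0.00911), where 42% of all tested genes were called higher, and the exact permutation p was 0.0571. The call was lost without chaetocin replicate 2 (edgeR adjusted p = 0.0580) and without chaetocin replicate 3 (edgeR adjusted p = 0.0578). The C-type genes Pcdhgc4 and Pcdhgc5, which end the cluster, had overlapping groups. Pcdhgc4, which in neurons serves cell survival, was at 1.01, 0.670, 1.43 and 1.54 CPM and 1.54, 0.831, 2.20 and 0.957 CPM. Pcdhgc5 was at 1.65, 1.13, 1.28 and 1.76 CPM and 1.71, 1.98, 2.40 and 1.08 CPM. Their log2 fold changes were 0.24 (1.96 SE interval -0.33 to 0.81) and 0.28 (-0.18 to 0.74), neither called (edgeR adjusted p = 0.449 and 0.275).

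**Figure D3:**
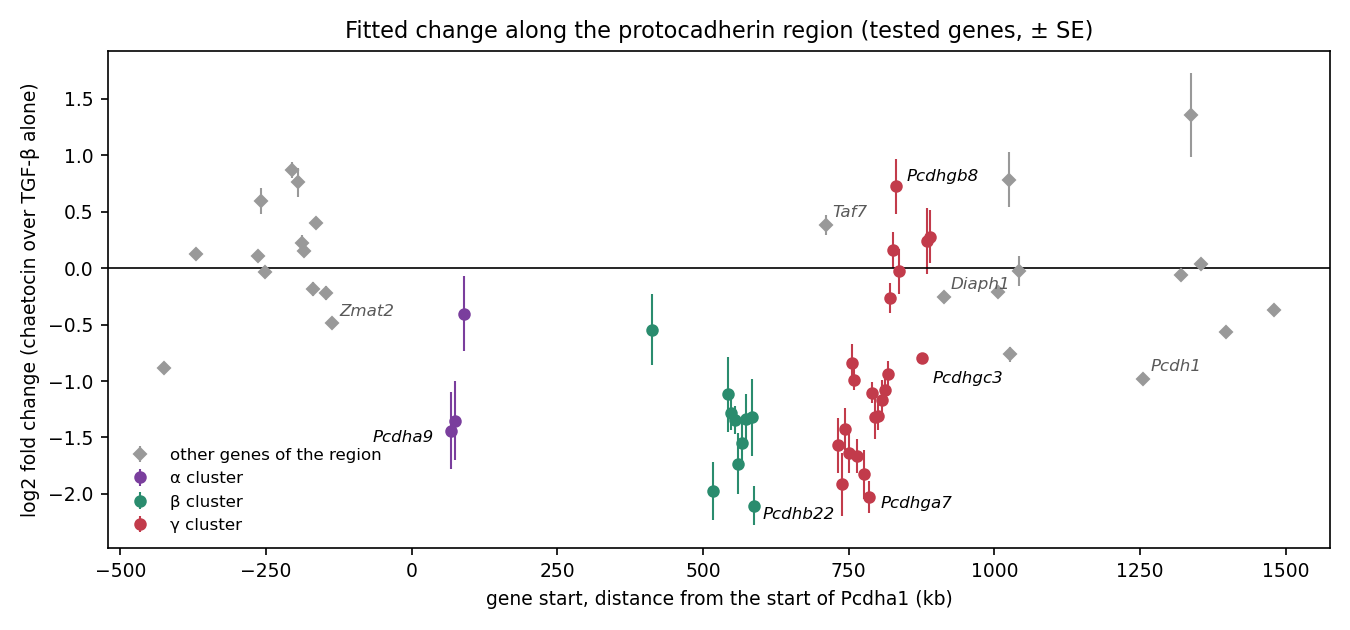
Fitted log2 fold change with its SE (vertical axis, chaetocin over TGF-β alone) of each tested protocadherin and of the tested genes of both neighbour lists within the plotted distance, against the distance of the gene start from that of Pcdha1 in kb. The β and γ members called lower lie between -0.79 and -2.10, the last γ genes lie near or above 0 apart from Pcdhgc3, and the genes around the clusters spread on both sides of 0.

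The order along the γ cluster and the fold change went together. Across the 22 members Spearman's rho was 0.80 and Pearson's r 0.79, and without the 3 C-type genes, rho was 0.71 and r 0.75 over 19 members. Members share the 8 libraries and the constant exons, and Pcdhga2 could not have entered on the chaetocin libraries alone, so these values are descriptions. Over the 10 tested β members the relation ran the other way, with rho at -0.45 and r at -0.64. Pcdhb7 was the only tested β gene before Pcdhb14, so the relation leans on it and leaves out most early genes. Among the 10, Pcdhb14, Pcdhb15, Pcdhb18 and Pcdhb21 could not have entered on the chaetocin libraries alone, where they were lower. The following sums use a split made after these values were seen, so they restate the pattern and do not test it. The 15 members before Pcdhgb7 had together 108.9 ± 2.89 CPM with TGF-β alone and 45.4 ± 0.874 CPM with chaetocin, whereas Pcdhgb7, Pcdhga11, Pcdhgb8, Pcdhga12, Pcdhgc4 and Pcdhgc5 had 18.1 ± 1.23 and 18.8 ± 2.18 CPM (SD, n = 4 per group). As shares of the γ counts, which do not depend on scaling between libraries, the first 15 went from 54.2% ± 0.650 to 42.5% ± 1.30 and the last 6 from 9.02% ± 0.492 to 17.6% ± 1.73. Pcdhgc3 held 36.8% ± 0.594 and 39.9% ± 1.12. Exons of Gm26672, a gene on the opposite strand that was not analysed here, overlap Pcdhga10, Pcdhgb7, Pcdhga11 and Pcdhga12 but not Pcdhgb8, Pcdhgc4 or Pcdhgc5. Its part in these counts was not tested.

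**Figure D4:**
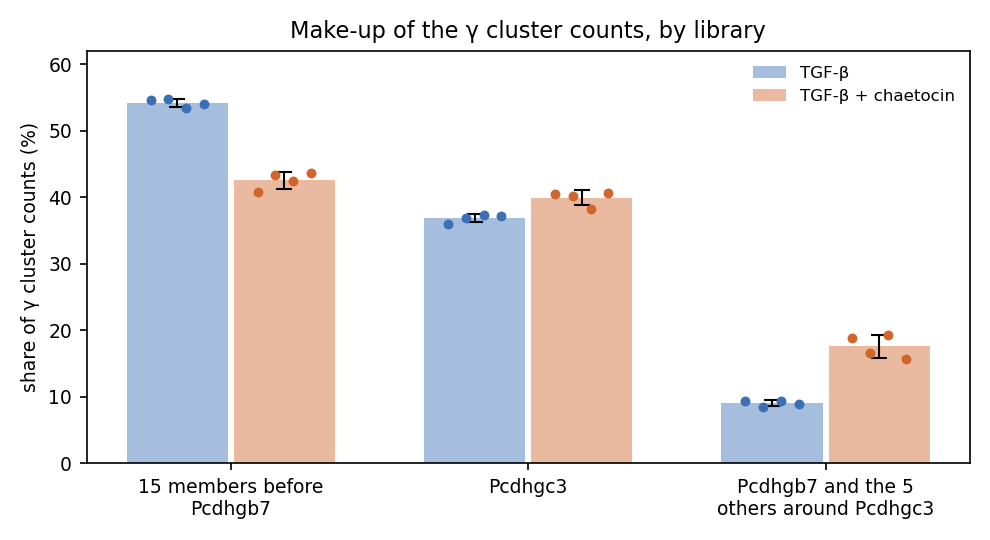
Share of the γ cluster counts in percent (vertical axis, from 0) held by the 15 members before Pcdhgb7, by Pcdhgc3, and by Pcdhgb7, Pcdhga11, Pcdhgb8, Pcdhga12, Pcdhgc4 and Pcdhgc5 together, with bars at group means, SD as error bars and 1 point per library, n = 4 per group. The share of the first 15 is lower with chaetocin and that of the last 6 is higher, with no overlap between groups.

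In the β cluster 9 of the 10 tested genes fell, all of them by at least 2-fold, with a median log2 fold change of -1.34 over the 10, where 38.8% of all tested genes were lower and 4.88% at least 2-fold lower. Pcdhb14, Pcdhb15, Pcdhb18 and Pcdhb21 reached the count minimum in every TGF-β library, where they were high, but not in every chaetocin library. Of the other 6, which reached it in both groups, 5 fell. They have no constant exons, and at most 9.67% of a β gene's exon bases, in Pcdhb21, are shared with another member. The largest fall was at the end of the array, in Pcdhb22, with 5.47, 4.85, 4.99 and 4.71 CPM with TGF-β alone and 1.28, 1.21, 1.27 and 0.82901 CPM with chaetocin. The groups lay far apart, and chaetocin replicate 4 was the lowest library. The log2 fold change was -2.10 ± 0.17 (SE; edgeR adjusted p = 1.3e-11). Pcdhb17, the most abundant β gene per length at 1.64 against 0.700 FPKM in the authors' deposited values, was at 8.41, 7.22, 7.85 and 8.23 CPM and 2.91, 3.13, 2.80 and 3.70 CPM, with a log2 fold change of -1.35 ± 0.13 (SE; edgeR adjusted p = 1.8e-10). All 4 of its chaetocin libraries were about equally low.

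Their neighbours fell in the same range. Pcdhb16 was at 5.05, 5.41, 5.78 and 6.16 CPM and then 2.39, 1.85, 2.80 and 2.10 CPM, and Pcdhb19 at 5.56, 3.87, 3.46 and 4.36 CPM and 1.67, 1.66, 1.33 and 1.15 CPM, without overlap between groups in either. Their log2 fold changes were -1.29 ± 0.15 and -1.55 ± 0.19 (SE). Pcdhb14, Pcdhb18, Pcdhb20, Pcdhb15 and Pcdhb21 had log2 fold changes of -1.97, -1.73, -1.34, -1.12 and -1.32. In Pcdhb18 the chaetocin libraries were uneven, at 0.940, 0.447, 1.93 and 0.510 CPM. The tested gene that did not pass, Pcdhb7, was at 0.689, 0.515, 0.988 and 1.14 CPM with TGF-β alone and 0.555, 0.639, 0.534 and 0.574 CPM with chaetocin. Its TGF-β libraries reached below and above the chaetocin ones, with a log2 fold change of -0.55 ± 0.31 (SE; edgeR adjusted p = 0.110), and -0.72 with a call without TGF-β replicate 2 (edgeR adjusted p = 0.0436).

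**Figure D5:**
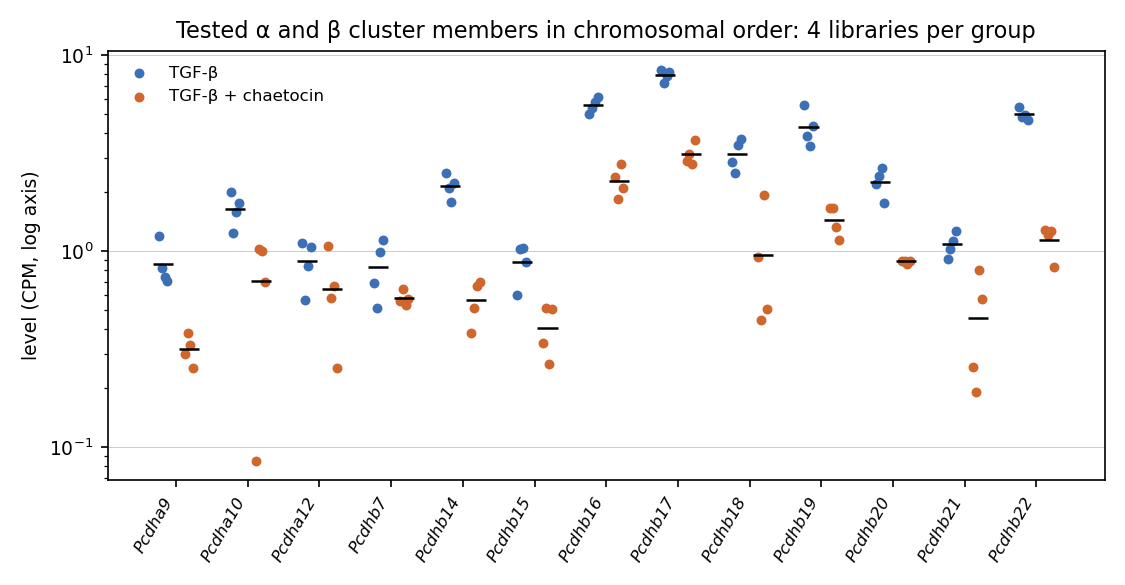
Level of the 13 tested α and β cluster genes in CPM (vertical log axis) in chromosomal order, with 1 point per library and a bar at each group mean, n = 4 per group. The groups overlap in Pcdha12 and Pcdhb7 and are apart in the other 11 genes, and 1 chaetocin library of Pcdha10 lies far below the other 3.

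The α cluster was close to silent in both groups, with 70 to 102 counts per TGF-β library and 36 to 74 per chaetocin library over its 14 genes. With TGF-β alone most of these counts were in 3 alternate genes, which are the tested ones. All 3 reached the count minimum in every TGF-β library but not in every chaetocin library, so their tests do not speak for the cluster. Pcdha9 had 26, 16, 15 and 16 counts with TGF-β alone and 7, 6, 5 and 4 with chaetocin, or 1.19, 0.825, 0.741 and 0.704 CPM against 0.299, 0.383, 0.333 and 0.255 CPM. Pcdha10 had 44, 24, 32 and 40 counts and 2, 16, 15 and 11, with chaetocin replicate 1 far below the other 3 although it was the deepest of them. Both genes were called lower, with log2 fold changes of -1.44 ± 0.34 and -1.35 ± 0.35 (SE; edgeR adjusted p = 4.4e-04 and 0.001). Pcdha12 had 24, 11, 17 and 24 counts against 25, 9, 10 and 4, with overlapping groups and a log2 fold change of -0.40 ± 0.33 (edgeR adjusted p = 0.264), and -0.85 with a call without chaetocin replicate 1 (edgeR adjusted p = 0.0444). The row named Pcdha10 carries the identifier ENSMUSG00000007440, which GENCODE M21 names Pcdha11, so the 2 names may be confused.

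Of the C-type genes of the α cluster, 1 was detected with chaetocin only and 1 not at all. Pcdhac2 had no count in any TGF-β library and 19, 7, 2 and 9 counts with chaetocin, 37 in all. Against a floor of 3 counts over the TGF-β group it was at least 14.9-fold higher. It was below the count minimum for testing and called higher in the edgeR fit without a filter. Pcdhac1 had 0 counts in all 8 libraries, which allows a level of up to 0.128 to 0.200 CPM depending on the library, for counting error only. Pcdha8 went from 2, 0, 0 and 0 counts to 5, 2, 2 and 4, and Pcdha11 from 0, 0, 0 and 3 to 9, 2, 2 and 0.

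Of the 23 members that were not tested, 11 were α and 12 β genes. In mean CPM, 16 of them were lower and 6 higher with chaetocin, and 1 was at 0. Over all 58 members 47 were lower in mean CPM and 10 higher. Without a filter edgeR tested 57 members and called 34 lower and 4 higher, the 4 being Pcdhac2, Pcdha8, Pcdha11 and Pcdhgb8. With the filter 38.8% of all tested genes were called lower and 42% higher. The shares without it were not tallied, so these counts describe the members only. Pcdha8 and Pcdha11 had only 13 counts each over the chaetocin libraries. Among the untested β genes, Pcdhb3 went from 11, 12, 15 and 17 counts to 5, 7, 1 and 6, and Pcdhb4 from 10, 6, 5 and 10 to 1, 2, 3 and 1, without overlap of the CPM values. Pcdhb1 had 1 to 3 counts in every library. Counts were above 0 in all 4 libraries in 45 members with TGF-β alone and in 43 with chaetocin, although 3 of the chaetocin libraries were shallower.

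Genes that silence the clusters moved in both directions. Chaetocin is used as an inhibitor of the SUV39 enzymes, and the transcript levels given here do not check the treatment labels. Suv39h1 was at 28.7 ± 0.741 CPM with TGF-β alone and 24.7 ± 1.94 CPM with chaetocin (SD, n = 4 per group), a log2 fold change of -0.21 ± 0.057 (SE; edgeR adjusted p = 0.00154; under total-count scaling -0.095, not called at adjusted p = 0.126). Suv39h2 rose by 0.55 on the log2 scale. Among 22 genes of DNA methylation, histone H3 lysine 9 methylation and related silencers, 8 rose and 12 fell (median log2 fold change -0.11). With total-count scaling both directions had 9 calls and the median was 0.00. With TMM scaling 42% of all tested genes were called higher and 38.8% lower. Smchd1, a chromatin protein that represses protocadherin genes, rose from 100.1 ± 4.74 to 274.7 ± 7.99 CPM, a log2 fold change of 1.46 ± 0.031 (SE; edgeR adjusted p = 7.9e-25). Dnmt3a and Dnmt3b, the de novo DNA methyltransferases, fell by 1.14 and 0.71, and Uhrf1, a cofactor of maintenance methylation, rose by 0.66. Setdb1, a methyltransferase known to repress this region in neurons, went from 63.1 ± 1.15 to 53.2 ± 1.07 CPM, and it was chosen for its known role.

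Most genes of CTCF and cohesin, which bring protocadherin promoters to their enhancers, were slightly lower with TMM scaling. Of 15 genes of the boundary factor and the cohesin cycle 11 fell and 2 rose, with a median of -0.21, and under total-count scaling 8 fell and 4 rose. The shares over all tested genes with TMM scaling were 38.8% called lower and 42% called higher. Ctcf was at 79.3 ± 3.42 and 72.4 ± 2.88 CPM (SD, n = 4 per group), a log2 fold change of -0.13 ± 0.038 (SE), and -0.017 and not called under total-count scaling (edgeR adjusted p = 0.677). The cohesin subunit gene Rad21 was at 183.7 ± 5.16 and 186.8 ± 1.36 CPM and was not called, but it was called higher under total-count scaling (log2 fold change 0.14; edgeR adjusted p = 2.5e-05). The named members of this group were Hdac8, Pds5b and Pds5a, which fell by 0.61, 0.46 and 0.44, and Esco2 and Cdca5, which act on cohesin in S phase and rose by 2.21 and 0.67.

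The non-clustered protocadherins and related cadherins moved differently from the clustered ones, though the difference between the families was not tested. Of 13 tested genes 8 rose, all by at least 2-fold, and 4 fell, with a median of 1.35. Of all tested genes 42% were called higher, 19.7% at least 2-fold higher and 38.8% lower. Cdhr2, Cdhr5, Cdhr1, Pcdh9, Pcdh10, Pcdh12 and Pcdh8, the last not called, missed the count minimum in at least 1 TGF-β library. They could not have entered on the TGF-β libraries alone, where their means were lower, so the count and the median describe the tested genes only. Pcdh17 rose from 1.24 ± 0.232 to 17.4 ± 1.72 CPM and Pcdh9 from 0.552 ± 0.222 to 7.18 ± 0.856 CPM (SD, n = 4 per group). Cdhr2, a cadherin of the intestinal brush border, had no count in any TGF-β library and 95, 60, 75 and 60 counts with chaetocin. The 4 that fell were the most abundant with TGF-β alone but not all of them with chaetocin, where Pcdh18 was at 5.84 ± 1.30 CPM. They were Pcdh19 at -0.53, Pcdh1 at -0.98, Pcdh7 at -0.67 and Pcdh18 at -1.35 on the log2 scale. Among classical cadherins and catenins 11 of 16 fell and 4 rose, and under total-count scaling 10 fell and 5 rose. Cdh11, the mesenchymal cadherin, fell by 2.65, Cdh6 by 2.39 and Cdh2 by 1.05, while Cdh17 rose by 4.49, Cdh5 by 0.52 and Cdh4 by 0.38.

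Of 26 genes for proteins that bind or cut protocadherins, 16 were called lower and 5 higher (median -0.21). Under total-count scaling 13 were lower and 8 higher. With TMM scaling 38.8% of all tested genes were called lower and 42% higher. At least 2-fold changes were called in 1 of the 26 genes downward and in 2 upward. Adam10, the protease that sheds protocadherin ectodomains, fell from 228.1 ± 6.63 to 128.5 ± 4.06 CPM, a log2 fold change of -0.83 ± 0.029 (SE; edgeR adjusted p = 5.7e-20). The atypical cadherin genes Celsr1 and Celsr2 fell by 1.73 and 0.93. Ret, a receptor tyrosine kinase that associates with protocadherins, rose by 2.18, the low-level Celsr3 by 0.97 and Pdcd10 by 0.18.

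Genes around the clusters did not fall as a block. Of all tested genes 42% were called higher and 38.8% lower with chaetocin. On the side before Pcdha1, 12 of 20 tested genes rose and 7 fell (median 0.13; under total-count scaling 12 rose and 3 fell). Among those named by the rule, Psd2, Nrg2 and Cd14 rose by 4.82, 2.51 and 0.87, and Hbegf, Zmat2 and Pfdn1 fell by 0.89, 0.49 and 0.32 on the log2 scale. Zmat2, the nearest of these at 130.5 kb before Pcdha1, went from 55.4 ± 2.14 to 39.5 ± 2.49 CPM. Taf7 is a transcription factor gene between the β and γ clusters, chosen after its values were seen. It had 9.83, 10.2, 10.2 and 8.49 CPM with TGF-β alone and 11.2, 12.7, 14.01 and 12.9 CPM with chaetocin, and it rose, with a log2 fold change of 0.39 ± 0.089 (SE; edgeR adjusted p = 3.0e-04). Diaph1, which lies 1.73 kb after the γ cluster and was likewise picked with its values known, fell by 0.26. Of 16 tested genes between or after the clusters 8 fell and 5 rose (median -0.14), with Fgf1, Pcdh1 and Fchsd1 at -1.72, -0.98 and -0.76, and Arhgap26, Rell2 and Nr3c1 at 1.01, 0.79 and 0.50.

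Neuronal genes were looked at because protocadherins are used most in neurons. The 18 markers summed to 279.3 to 285.1 CPM per library with TGF-β alone and to 212.2 to 220.5 CPM with chaetocin. Of the 13 tested, 9 rose and 3 fell, where 42% of all tested genes were called higher and 38.8% lower. Ncam1 made up most of the TGF-β sum, at 153.3 ± 1.38 CPM against 56.0 ± 3.16 CPM with chaetocin (SD, n = 4 per group). Ncam1, Dcx and Tubb3 were the 3 that fell, Dcx by 2.85 on the log2 scale and Tubb3 from 14.9 ± 0.285 to 6.54 ± 0.643 CPM. Nefm, a neurofilament gene, rose from 0.444 ± 0.188 to 4.90 ± 0.731 CPM. Defining neuronal markers were near 0 in both groups, with Rbfox3 at 0.0345 ± 0.0689 and 0.434 ± 0.214 CPM, Snap25 at 0.161 ± 0.200 and 0.0800 ± 0.0959 CPM and Stmn2 at 0.405 ± 0.203 and 0.285 ± 0.0796 CPM. The part of other cell types in the protocadherin values was not tested. The fibroblast list fell in 8 and rose in 2 of 14 tested genes, with sums of 38978 to 40832 CPM against 18684 to 20279 CPM. Fn1 made up most of the fibroblast sum with TGF-β alone, and its log2 fold change was -1.03 under total-count scaling. The epithelial list rose in 6 and fell in 5 of 12, with sums of 3782 to 3958 CPM against 6844 to 7136 CPM. The higher sum was not shared by the whole list, in which 6 rose and 4 fell under total-count scaling. With that scaling Krt8, Krt18 and Krt19 had log2 fold changes of 1.31, 1.25 and 1.17, and Pax8, Pax2 and Lrp2 of -0.37, -0.51 and -0.56.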

How the data were processed

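RNA sequencing was done on 8 libraries, 4 per group, grouped by the treatment label. Per the submitters' processing notes the build was GRCm38, also called mm10. Neither aligner, counter nor annotation is named in the sources. Whole-number read counts and FPKM values per gene and library were deposited by the authors, per the file headers. The deposited table also holds the authors' log2 ratio of mean FPKM and their p-value and FDR from an unnamed test. By the authors' deposited table, 30 members have an FDR under 0.05 and a lower FPKM with chaetocin, and 2 have a higher one. The shares over all genes by that FDR were not tallied, so these counts describe the members only. There were 0 columns of other samples.

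Counts were fitted over the whole table by edgeR 4.0.16 (R 4.3.3) and its quasi-likelihood test, with filterByExpr, TMM scaling and Benjamini-Hochberg adjustment over all tested genes. An adjusted p under 0.05 was a call, and a stricter call added a fitted fold of at least 2. SEs are the log2 fold change divided by the square root of F, and intervals are 1.96 SE. The test was checked on simulated counts. Positions and exon overlaps come from GENCODE M21. The alternatives were total-count scaling, DESeq2 size factors, a filter of 1 CPM in 4 libraries, no filter, DESeq2 1.42.0, limma-voom and limma 3.58.1 on log2(FPKM + 1) with and without a filter or with a pseudocount of 0.1. They also included a replicate block, each library left out, and glmTreat against a fold of 1.5.

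The members, the 13 gene lists and the tests were chosen with earlier results of these data known. Members with at least 10 counts in all and all C-type members could be described singly. Of each list, up to 3 called genes per direction with the largest fold and a mean of at least 1 CPM were named, with Suv39h1 and Suv39h2 in every case. A gene that the rule picks is not reported here. Other genes were named for their known role or after their values were seen. Of the other marker lists, 7 of 11 macrophage, 3 of 9 endothelial and 1 of 5 glial genes tested fell, and 3, 5 and 2 rose. Among all tested genes 38.8% were called lower and 42% higher.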

Additional observations from a re-analysis of the deposited data

Results flagged for a closer look

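In 8 of 109 groups of 4 libraries, 1 library of a member stood far from the other 3, where chance flags about 1 in 20 groups. With chaetocin, Pcdhb22 was at 0.82901 CPM and Pcdhga9 at 1.08 CPM in replicate 4, below the other 3 libraries, and both stayed called lower without it. Pcdhb20 was at 0.867 CPM in 1 chaetocin library, with the other 3 at 0.893 to 0.897 CPM. With TGF-β alone Pcdhgb6 was at 11.6 CPM in 1 library, and the highest was at 12.1 CPM. The other 4 cases rested on 1 to 3 counts: Pcdha4 at 0.0854 CPM with chaetocin, and with TGF-β alone Pcdha8 at 0.0919 CPM, Pcdha11 at 0.132 CPM and Pcdhb1 at 0.0988 CPM.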

How the results depend on the processing

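The count of 27 members lower was the same with DESeq2 size factors, total-count scaling, DESeq2 and limma-voom, and each of the 28 called members kept its call and sign there. Leaving out 1 library gave 27 to 31 members lower, 0 to 1 higher, 22 to 25 at least 2-fold lower and 0 at least 2-fold higher. Limma on FPKM above 1 could test 11 members and called 10 lower and 0 higher, with 0 at least 2-fold lower at a pseudocount of 1 and 5 at 0.1. Without an FPKM filter it called 2 higher and 0 at least 2-fold lower. Without a count filter 4 members were called higher, 3 of them at least 2-fold. Against a fold of 1.5 glmTreat called 0 members higher, and of the list genes 17 lower and 18 higher. Leaving out 1 library gave 65 to 68 list genes lower and 42 to 44 higher. The log2 ratio of summed CPM was -1.33 for the β cluster, -0.80 for the γ cluster and -0.86 for all members under total-count scaling, against -1.45, -0.91 and -0.97 with TMM. Leaving out 1 library it was -0.58 to -0.43 (α), -1.49 to -1.43 (β), -0.93 to -0.90 (γ) and -0.99 to -0.96 (all). The log2 fold change of Pcdhga12 changed sign, to 0.088 under total-count scaling and 0.034 with limma on unfiltered FPKM, and was -0.20 to 0.13 leaving out 1 library. That of Pcdhgc4 was -0.030 to 0.40 leaving out 1 library. The cause of these changes was not tested. Same-numbered libraries did not deviate together (correlations of -0.013 to 0.032 across genes, 0 of 4 best with their own number). With a replicate block 27 members were lower and 1 higher, as without it. Depth limits the α cluster and the first β genes, where most members had under 10 counts per library.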
